A study of Mus musculus with 6 samples.

Results

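The genes described here are 10 transcripts of the unfolded protein response and the integrated stress response: Atf6, Ern1, Xbp1, Herpud1, Eif2ak3, Atf4, Ddit3, Trib3, Chac1 and Asns. They were taken by name from the 15454 rows of the gene count table and from the FPKM table of a mouse liver series, and all 10 were among the 12411 genes with enough counts to be tested. The livers came from male C57BL/6 mice, 8 to 10 weeks old, in which warm ischemia of 75% of the liver was followed by reperfusion (I/R), with 1 h of ischemia and 6 h of reperfusion. The 3 I/R livers were from mice given vehicle, and the 3 I/R+Rk2 livers were from mice given ginsenoside Rk2, a saponin of processed ginseng, 2 days ahead of the operation and once more as blood flow returned. The sample labels do not give the dose, and the paper names its high-dose group, at 30 mg/kg, as the Rk2 group whose livers were sequenced. The question was what Rk2 does to gene expression in the injured liver. All 6 livers had undergone I/R and livers of sham-operated mice were not analysed here, so every difference is between I/R+Rk2 and I/R and none is against uninjured liver.

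The endoplasmic reticulum (ER) folds secreted proteins, which hepatocytes make in large amounts, and 3 membrane sensors report on that folding. ATF6 is cut and moves to the nucleus, IRE1α (encoded by Ern1) splices the Xbp1 transcript into the form that encodes an active transcription factor, and PERK (encoded by Eif2ak3) phosphorylates the translation factor eIF2. Phosphorylated eIF2, which other kinases also make when amino acids or heme run short, lowers translation in general and raises that of the transcription factor ATF4, and this shared route is the integrated stress response. ATF4 drives genes of amino acid supply such as Asns together with Ddit3 (which encodes CHOP), Trib3 and Chac1.

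For the members whose level differed most, the DNA or RNA letters that connect them to these factors are printed first. Promoter windows of 300 bases, from 250 before to 50 after the start of a gene, were taken from RefSeq (GRCm38.p6) and were matched for 9 of the 10 members. They were searched on both strands for the composite element that ATF4 binds with C/EBP partners, TGATGCAA, and for its looser form TGATGNAA, which contains every match to the first. The capitals below mark the match in each stretch, and in Herpud1 the second run of capitals marks the ER stress response element II (ERSE-II), which ATF6 and XBP1 can bind.
Asns, chr6:7693216-7693245, minus strand: ggtcccagccacaTGATGAAActtcccgca
Chac1, chr2:119351032-119351081, plus strand: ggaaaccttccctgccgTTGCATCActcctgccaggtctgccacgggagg
Herpud1, chr8:94386304-94386398, plus strand: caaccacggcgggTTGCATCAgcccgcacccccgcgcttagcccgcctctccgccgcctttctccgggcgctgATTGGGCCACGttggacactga
The Asns match TGATGAAA lay 23 to 16 bases before the RefSeq start, and the stretch is inside the span that GENCODE M21 gives to Asns. Chac1 and Herpud1 carried the composite element in reverse, TTGCATCA, at 193 to 186 and at 112 to 105 bases before the start. So the same letters stand in the promoter of a member that was lower in I/R+Rk2 and in that of the member that was higher, as described below. The composite element was present in 2 of the 9 member windows and in 1.03% of the 27025 genes with a window, the looser form in 4 of 9 (Trib3 and Asns besides) and in 4.51%, and ERSE-II in Herpud1 alone among members and in 0.0444% of genes. Neither the UPR element core TGACGTGG, held by 0.714% of genes, nor the ER stress response element ERSE, held by 0.137%, was found in a member window. A match is a description of letters and not a measured binding site. A missing match covers only these exact letters inside the window, and elements further away or with other letters were not searched for.

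The substrate of IRE1α is printed for Xbp1, because the sequenced counts are per gene and do not tell the spliced from the unspliced transcript. The capitals mark the 26 bases that IRE1α removes, found between a pair of sites with the letters CNGCAGC in exon 4 of the 5 exons of transcript Xbp1-201 (GENCODE M21, GRCm38), at chr11:5524282-5524307 on the plus strand, and 12 bases are shown on either side.
Xbp1: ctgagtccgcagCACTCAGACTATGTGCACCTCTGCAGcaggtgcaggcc

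Levels between genes were compared as FPKM, which is scaled for transcript length. Xbp1 was the highest of the members in I/R livers, at 265, 326 and 250 FPKM, and was at 162, 91.2 and 96.7 FPKM in I/R+Rk2. Herpud1 took the first place in I/R+Rk2, with 169, 190 and 165 FPKM, from 103, 71.5 and 96.2 FPKM in I/R. Thus the leading transcript of the set was a different one in each group. Atf4 followed at 76.9 ± 2.65 FPKM in I/R (SD, n = 3) and 56.4 ± 12.6 FPKM in I/R+Rk2, and in I/R its livers overlapped those of Herpud1. The other 7 members were far below, between 6.03 FPKM (Trib3) and 19.1 FPKM (Chac1) in I/R. In I/R, the livers of Ddit3, Atf6, Eif2ak3 and Ern1 overlapped between neighbours in the order, as did those of Asns and Trib3. The same was true in I/R+Rk2 of Ddit3, Ern1 and Chac1, and of Eif2ak3, Trib3 and Asns, the last at 2.25 ± 1.68 FPKM.

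**Figure D1:**
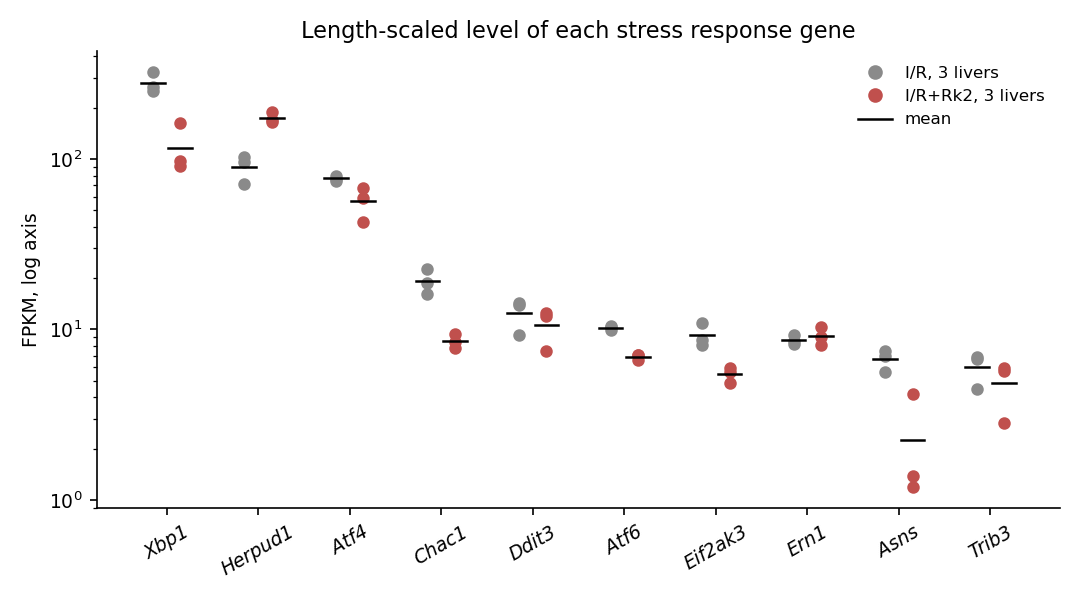
FPKM of each member on a log axis, with 1 point per liver (grey, I/R; red, I/R+Rk2) and a bar for the mean of 3 livers. Genes are ordered by their mean in I/R; Xbp1 leads in I/R at a mean of 280 FPKM and Herpud1 leads in I/R+Rk2 at a mean of 175 FPKM.

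Between groups, genes were compared in normalised counts per 1000000 (CPM) with edgeR, which has no length scaling. Of the 10 members, 6 passed an adjusted p of 0.05, against 43.9% of all genes tested. Xbp1, Atf6, Eif2ak3, Asns and Chac1 were lower in I/R+Rk2, which is 5 members against 23.7% of all genes, and Herpud1 was higher, which is 1 member against 20.3%. With a fold change above 2 besides, 2 members were lower (Xbp1 and Asns; 11.4% of all genes) and 1 was higher (Herpud1; 3.17% of all genes). The livers of the 2 groups did not overlap for 8 members, and they did not overlap for 57.4% of all genes. The median log2 fold change (I/R+Rk2 over I/R) was -0.35 over the members and -0.01 over all genes tested. With close to 1 in 2 genes of these livers passing the test, the share of members that passed is near the background.

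**Figure D2:**
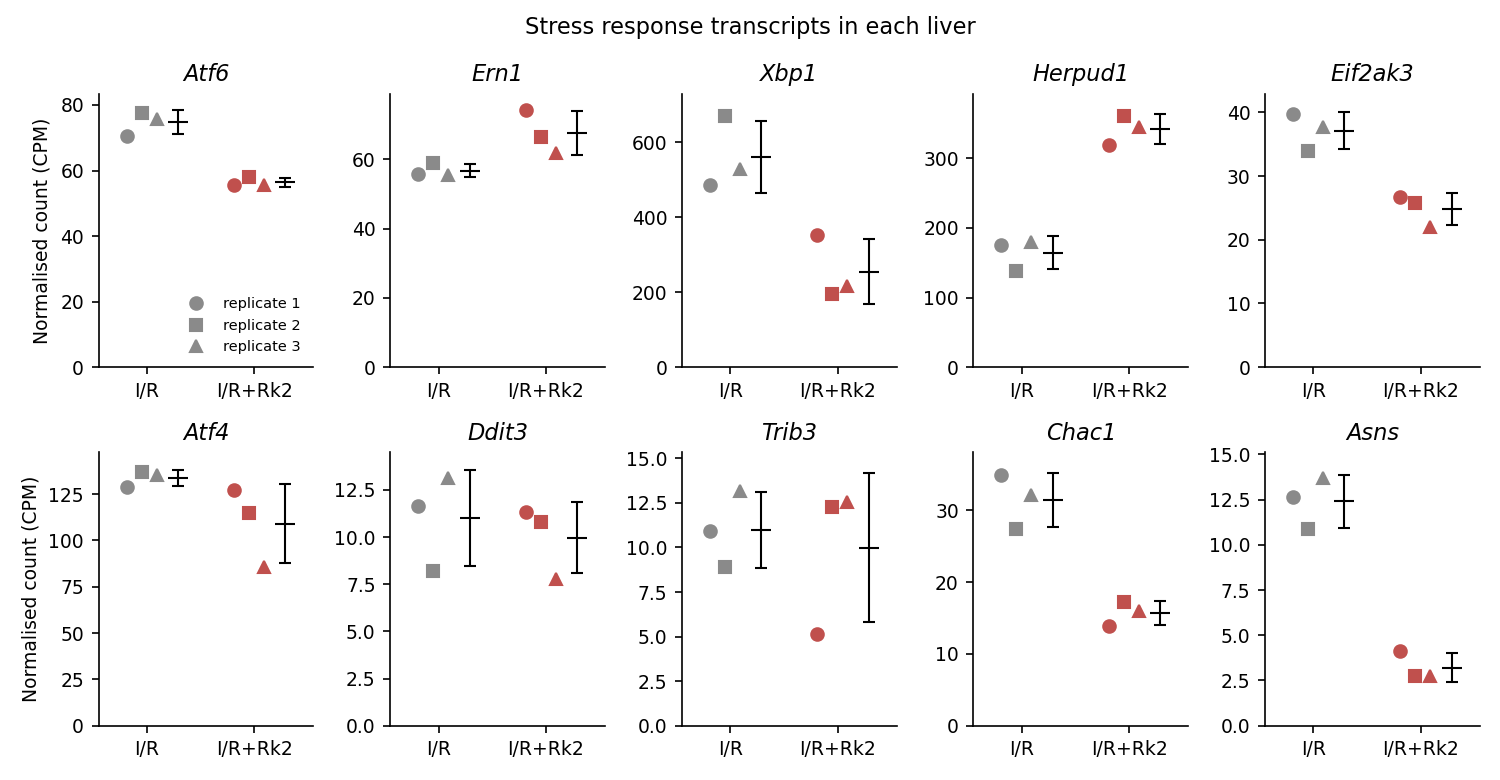
Normalised counts (CPM, axes from 0) of the 10 members in each liver, with symbols for replicate numbers and, in black, the mean and SD of 3 livers. The I/R and I/R+Rk2 livers overlap for Ddit3 and Trib3 and are apart for the other 8 members; Ern1 and Herpud1 are the members with higher values in I/R+Rk2.

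Of the 3 sensors, Atf6 and Eif2ak3 were lower in I/R+Rk2 and Ern1 was not. Atf6 (chromosome 1, 170704674 to 170867771, minus strand; GENCODE M21, GRCm38, as for all genes below) was at 70.6, 77.6 and 75.9 CPM in I/R and at 55.7, 58.0 and 55.5 CPM in I/R+Rk2. The livers of each group lay close together and the groups did not overlap. Its log2 fold change was -0.41 with an SE of 0.08 and an edgeR adjusted p of 0.00627. Eif2ak3 (chromosome 6, 70844515 to 70905245, plus strand), the eIF2 kinase of the ER membrane, was at 39.7, 34.0 and 37.7 CPM in I/R and at 26.8, 25.8 and 22.0 CPM in I/R+Rk2. Every I/R+Rk2 liver was below every I/R liver, and the log2 fold change was -0.58 with an SE of 0.11 and an edgeR adjusted p of 0.00587. It shares 485 exon bases with a record on the opposite strand, Gm43292, whose reads cannot be told apart if strand was not used.

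Ern1 (chromosome 11, 106394650 to 106487852, minus strand), which encodes the kinase and RNase IRE1α, had 55.8, 58.9 and 55.6 CPM in I/R and 74.3, 66.6 and 61.7 CPM in I/R+Rk2. All I/R+Rk2 livers were above all I/R livers, by a small margin for replicate 3. The log2 fold change of 0.25 (95% interval 0.03 to 0.47) did not pass after adjustment over all genes, with an edgeR adjusted p of 0.0647. It passed under upper-quartile scaling (0.30, adjusted p = 0.0362) and when I/R+Rk2 replicate 3 was left out (0.32, edgeR adjusted p = 0.0436), and it was 0.09 when libraries were scaled by their size alone.

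Xbp1 (chromosome 11, 5520659 to 5525893, plus strand), the transcript that IRE1α splices and the transcription factor of ER expansion, was more than 2-fold lower in I/R+Rk2. It was at 487, 670 and 527 CPM in I/R and at 353, 195 and 217 CPM in I/R+Rk2. The highest I/R liver was replicate 2, and I/R+Rk2 replicate 1 lay above the other two of its group without reaching the I/R livers. The means were 561 ± 96.4 and 255 ± 85.7 CPM (SD, n = 3), a log2 fold change of -1.14 (SE 0.24, 95% interval -1.70 to -0.57) with an edgeR adjusted p of 0.00878. Leaving out replicate 2 of I/R gave -0.99 and leaving out replicate 2 of I/R+Rk2 gave -0.97, so the fold of 2 rests on these 2 livers while the adjusted p stayed below 0.05 in both.

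Herpud1 (chromosome 8, 94386438 to 94395377, plus strand) encodes a membrane protein of the ER degradation complex and is a common target of ATF6, XBP1 and ATF4. It was the member that rose. Its values were 176, 138 and 180 CPM in I/R and 319, 361 and 346 CPM in I/R+Rk2. The lowest I/R+Rk2 liver was well above the highest I/R liver. The means of 165 ± 23.3 and 342 ± 21.2 CPM gave a 2.08-fold rise, or 1.06 on the log2 scale (SE 0.12, 95% interval 0.77 to 1.34; edgeR adjusted p = 0.00107). Over the 16 alternatives the log2 fold change ran from 0.89 to 1.12.

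Atf4 (chromosome 15, 80255184 to 80257541, plus strand), the transcription factor at the centre of the integrated stress response and controlled largely through its translation, was at 129, 137 and 135 CPM in I/R and at 127, 115 and 85.5 CPM in I/R+Rk2. The I/R livers were nearly equal, I/R+Rk2 replicate 1 was just under them and replicate 3 was lowest. The log2 fold change of -0.29 had a 95% interval of -0.63 to 0.05 and an edgeR adjusted p of 0.139, so it did not pass. It passed when I/R+Rk2 replicate 1 was left out (-0.43, edgeR adjusted p = 0.0450) and, in limma, on log2(FPKM + 1) for genes with a mean FPKM of at least 1 (-0.46, adjusted p = 0.0480). With I/R+Rk2 replicate 3 left out, the value was -0.14 (edgeR adjusted p = 0.279).

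Ddit3 (chromosome 10, 127290774 to 127296288, plus strand), whose product CHOP is a transcription factor of ER stress and cell death, was at 11.6, 8.20 and 13.2 CPM in I/R and at 11.3, 10.8 and 7.80 CPM in I/R+Rk2. The groups overlapped and the log2 fold change of -0.13 had a 95% interval of -0.64 to 0.37 (edgeR adjusted p = 0.638). The Ddit3 locus is also a difficult one to count, because GENCODE M21 lists a further gene record of the same name that shares 105 exon bases with it, and Mars shares 68 on the opposite strand. Trib3 (chromosome 2, 152337422 to 152344032, minus strand), a pseudokinase induced by ATF4 and CHOP, was at 10.9, 8.90 and 13.2 CPM in I/R and at 5.17, 12.3 and 12.5 CPM in I/R+Rk2. Here I/R+Rk2 replicate 1 was the lowest of the 6 livers and the others of its group were among the I/R livers. Its log2 fold change was -0.14 with a 95% interval of -0.92 to 0.64 (edgeR adjusted p = 0.757). These intervals leave room for differences of either sign, and both values changed sign when a single liver was left out.

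The ATF4 targets Chac1 and Asns, in contrast, were lower in every I/R+Rk2 liver than in any I/R liver. Chac1 (chromosome 2, 119351229 to 119354381, plus strand), an enzyme that degrades glutathione, was at 34.9, 27.4 and 32.1 CPM in I/R and at 13.9, 17.3 and 16.0 CPM in I/R+Rk2. Its log2 fold change was -0.999 (SE 0.13, 95% interval -1.31 to -0.69; edgeR adjusted p = 0.00155), a fold of 1.998, which lies at the fold limit of 2 and passed it in some of the alternatives. Asns (chromosome 6, 7675169 to 7693254, minus strand), asparagine synthetase, was the member with the largest difference. It was at 12.6, 10.8 and 13.7 CPM in I/R and at 4.12, 2.75 and 2.76 CPM in I/R+Rk2, from 242, 278 and 344 counts and from 98, 93 and 45 counts. The lowest I/R liver was far above the highest I/R+Rk2 liver. The means of 12.4 ± 1.45 and 3.21 ± 0.786 CPM differed 3.85-fold, a log2 fold change of -1.94 (SE 0.20, 95% interval -2.41 to -1.48; edgeR adjusted p = 0.000699). The difference was -1.35 on log2(FPKM + 1) and -1.75 on log2(FPKM + 0.1), and it passed on both in limma.

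**Figure D3:**
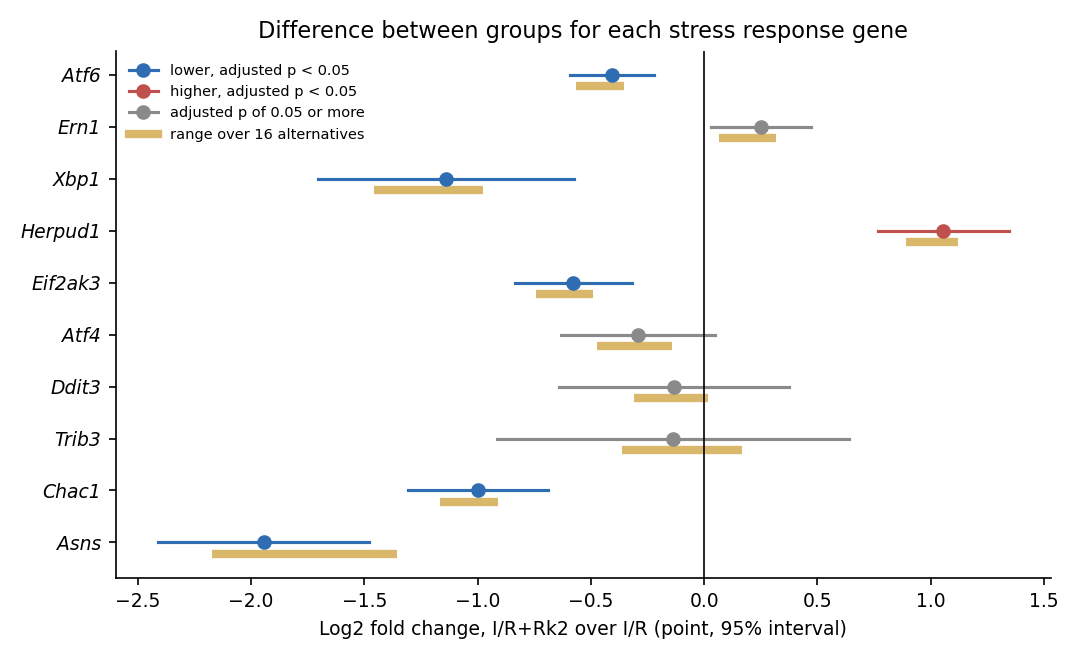
Log2 fold change (I/R+Rk2 over I/R) of each member from edgeR with its 95% interval, coloured by whether the adjusted p was below 0.05, and in ochre the range of the value over 16 alternative settings. Asns lies lowest at -1.94 and Herpud1 highest at 1.06; the ranges of Ddit3 and Trib3 cross 0.

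These are bulk livers, in which fewer cells of a type and less RNA per cell cannot be told apart, and several marker lists moved with the groups. All 10 monocyte markers and 9 of 10 neutrophil markers were lower in I/R+Rk2 (against 23.7% of all genes). The median log2 fold change was -4.10 over the monocyte markers (range -5.61 to -0.49) and -2.20 over the neutrophil markers. Their summed levels were 1777 to 2115 and 544 to 673 CPM in I/R against 1172 to 1234 and 98.9 to 227 CPM in I/R+Rk2. A sum is set mostly by the most abundant markers of a list, so it need not follow the median. All 10 Kupffer cell markers had a negative log2 fold change (median -0.46), and 1 of them passed (against 23.7% of all genes called lower). Their sum was 92.1 to 144 CPM in I/R against 75.8 to 92.7 CPM in I/R+Rk2. Of 11 hepatocyte markers tested, 5 were higher (against 20.3% of all genes) and 1 was lower (23.7%). Their sum was 69634 to 80453 CPM in I/R and 102504 to 127542 CPM in I/R+Rk2. Of 8 endothelial markers, 3 were higher (against 20.3% of all genes) and 3 were lower (23.7%). Among 8 stellate cell markers, 2 were lower, near the 23.7% of all genes. The groups overlapped in both sums. The endothelial sum was 205 to 213 CPM in I/R against 174 to 211 CPM in I/R+Rk2, and the stellate sum 173 to 201 against 138 to 200 CPM. Of 10 markers of plasma and B cells, in which Xbp1 is high, 3 had no row among the counts per gene and 1 had enough counts to be tested (not called). The 7 with a row summed to at most 2.03 CPM in any liver, a sum that does not cover the other 3. No listed marker with a row was at 0 in all 3 I/R+Rk2 livers. The part of these cell types in the differences of the 10 members was not tested.

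Around the members, 7 lists of pathway genes were examined, chosen like the members with earlier results of these data known. Genes that set the phosphorylation and activity of eIF2 were the first. Of 13 such genes, 6 were lower in I/R+Rk2 (against 23.7% of all genes) and the other 7 did not pass, with a median log2 fold change of -0.23. Eif2ak4, the eIF2 kinase that senses uncharged tRNA, fell by 0.88 on the log2 scale (edgeR adjusted p = 0.00248) from 15.6, 12.4 and 13.1 CPM to 7.15, 7.96 and 7.18 CPM, although in the 3 limma fits on FPKM its adjusted p was 0.0815 to 0.144. Ppp1r15b and Ppp1r15a, which bring a phosphatase to eIF2, were at -0.48 (edgeR adjusted p = 0.00371) and -0.58 (0.0362), and Eif2s1, the subunit that is phosphorylated, was at -0.39 (0.0137). Eif2b3, of the exchange factor that phosphorylated eIF2 blocks, was at -0.62 (0.0298). The count depended on single livers, with 2 genes lower when replicate 3 of I/R or replicate 2 of I/R+Rk2 was left out and 3 when replicate 3 of I/R+Rk2 was. Ppp1r15a and Eif2b3 each lost the call on leaving out any of 5 of the 6 livers. Eif2s1 lost it without replicate 3 of I/R (edgeR adjusted p = 0.0501) or replicate 2 of I/R+Rk2 (0.0564). In the 3 limma fits on FPKM, Eif2b3 did not pass either (adjusted p 0.0995 to 0.143).

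The list of further ATF4 and CHOP targets held 29 genes, of which 27 were tested, 16 were lower (against 23.7% of all genes), 3 were higher (20.3%) and 8 did not pass. Its median log2 fold change was -0.68, and 11 of the lower genes passed a fold of 2, as did 11.4% of all genes in that direction. Those with the smallest p were a pair of amino acid transporters. Slc7a11, the cystine importer, was at 14.5, 12.1 and 16.5 CPM in I/R and at 2.98, 2.25 and 2.33 CPM in I/R+Rk2 (log2 fold change -2.51, edgeR adjusted p = 0.000265). Slc7a5, the large neutral amino acid carrier, was at 15.6, 19.2 and 18.8 CPM and at 3.66, 2.52 and 2.33 CPM (-2.65, edgeR adjusted p = 0.000279). Neither gene had an I/R+Rk2 liver near the I/R livers. Aldh18a1, of proline synthesis, was at -2.21 (edgeR adjusted p = 0.00136) and Sesn2, a stress-induced inhibitor of mTORC1, at -1.28 (0.000753). Chosen after its values were seen, Psat1 of serine synthesis had the largest fall of the list, at 12.6, 20.5 and 16.8 CPM in I/R and at 2.86, 0.740 and 0.921 CPM in I/R+Rk2 (-3.47, edgeR adjusted p = 0.00187), and it was -4.36 with replicate 1 of I/R+Rk2 left out.

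Not every target went that way. The 3 that rose, named after their values were seen, were Atf5, a transcription factor related to ATF4 (0.66, edgeR adjusted p = 0.00137), Cth, which makes cysteine (0.86, 0.0159), and Shmt2 of mitochondrial one-carbon metabolism (0.60, 0.00660). Cth did not pass with I/R replicate 1 left out (edgeR adjusted p = 0.0522), and on log2(FPKM + 1) without a filter neither Atf5 (limma adjusted p = 0.0580) nor Cth (0.0697) passed, which left 1 higher gene. Atf3, a stress transcription factor downstream of ATF4, was at -0.29 (0.138) and passed with I/R+Rk2 replicate 1 left out (-0.45, edgeR adjusted p = 0.0254), while the hormone gene Fgf21 was at -0.60 (0.174) and, with I/R+Rk2 replicate 3 left out, at -0.32. Atf4 itself, Ddit3, Trib3 and Atf3 did not pass in the same livers in which 16 of the 27 further targets were lower. Not passing does not show that these genes were unchanged. Atf4 was at -0.29, with every I/R+Rk2 liver below every I/R liver in CPM, while the groups overlapped for Ddit3, Trib3 and Atf3. Whether the lower targets of this list followed Atf4 was not tested, and counts do not measure ATF4 protein. The composite element TGATGCAA stood in 7 of 25 promoter windows of this list, against 1.03% of all genes with a window. Of those 7, 3 belonged to lower genes, 0 to higher genes and 4 to genes that did not pass or were not tested. Of 13 genes for cytosolic tRNA synthetases and the tRNA exporter Xpot, a further group that ATF4 induces, 7 were lower (against 23.7% of all genes) and 1, Tars, was higher (20.3%), with a median of -0.34. Tars was at 0.50 (edgeR adjusted p = 0.0166). Iars was at -0.64 (edgeR adjusted p = 0.00492), Yars at -0.60 (0.00581), Lars at -0.53 (0.00746) and Sars at -0.40 (0.00851). Tars did not pass on FPKM, after scaling by library size alone, or with replicate 3 of I/R or replicate 2 of I/R+Rk2 left out. In the tRNA synthetase list, TGATGCAA stood in 4 of 9 promoter windows. Of those 4, 2 belonged to lower genes, 1 to the higher gene Tars and 1 to a gene that did not pass.

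Genes downstream of ATF6 and XBP1 were examined next. Of 22 ER chaperone and folding genes, 17 did not pass, 3 were higher and 2 were lower, with a median log2 fold change of 0.04, where 43.9% of all genes passed (20.3% higher and 23.7% lower). Hspa5, which encodes the chaperone BiP and is the usual marker of the unfolded protein response, was at 618, 818 and 1189 CPM in I/R and at 636, 900 and 777 CPM in I/R+Rk2. The groups overlapped, and the difference of -0.18 had a 95% interval of -0.75 to 0.39 (edgeR adjusted p = 0.570). Ero1l, an oxidase that drives disulfide formation and is a known CHOP target, fell by 1.56 on the log2 scale (edgeR adjusted p = 0.000879) and passed in every alternative. Dnajb9, a co-chaperone and target of XBP1, was at -0.36 (0.0193) and lost the call when replicate 1 or 3 of I/R or replicate 2 of I/R+Rk2 was left out. The 3 higher genes were Pdia4 (0.52, 0.0284), Ppib (0.32, 0.0263) and, named after its values were seen, Sil1 (0.28, 0.0346). That count was 0 when any one I/R liver was left out, 1 when replicate 1 or 3 of I/R+Rk2 was, and 0 on FPKM or after scaling by library size alone. The element ERSE stood in 8 of 19 promoter windows of the list, Hspa5 among them, and none of those 8 genes passed the test.

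In ER-associated degradation, the route that Herpud1 serves, 2 of 20 genes were higher (against 20.3% of all genes) and 3 were lower (23.7%), with a median of -0.02. That balance turned with the scaling, from 4 higher and 1 lower under upper-quartile scaling to 1 higher and 5 lower with library size alone, and on FPKM 1 was higher and 5 or 6 were lower. Derl2, a channel component of that route, was at 66.5, 67.2 and 73.2 CPM in I/R and at 107, 113 and 105 CPM in I/R+Rk2 (0.65, edgeR adjusted p = 0.00130). It moved in the direction of Herpud1 with no overlap between groups, and passed in every alternative. Its relative Derl3, low in these livers at a mean of 1.21 CPM in I/R, was at -1.45 (edgeR adjusted p = 0.0212), and the cofactor Nploc4 was at -0.32 (0.0269). Lower calls numbered 0 with replicate 2 of I/R+Rk2 left out, 4 with its replicate 1 left out and 1 with any other liver left out. Higher calls numbered 1 on leaving out replicate 2 or 3 of I/R or replicate 1 of I/R+Rk2. Of 27 genes of ER translocation and export, 3 were higher (Sec61b, Ssr4 and Tram1, each at 0.33 on the log2 scale; against 20.3% of all genes) and 3 were lower (23.7%), with a median of 0.01. This split too depended on the scaling, with 5 higher and 1 lower under upper-quartile scaling, 0 higher and 4 lower with library size alone, and 1 higher and 4 lower on FPKM. Sec61b, Ssr4 and Tram1 did not pass on FPKM or with library size alone, at 0.16 to 0.18 on the log2 scale. Spcs1, a signal peptidase subunit, was lowest among those that passed (-0.58, edgeR adjusted p = 0.00233) and passed in every alternative. Among those 27 genes, 0 were higher when replicate 1 of I/R was left out, and 1 when replicate 2 or 3 of I/R or replicate 1 of I/R+Rk2 was. The lower count was 1 with replicate 2 or 3 of either group left out.

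Among 12 tested partners and relatives of the sensors, 2 were lower (against 23.7% of all genes) and 1 was higher (20.3%). Creb3l2, an ER-bound transcription factor that is cut like ATF6, was at 78.8, 76.8 and 74.5 CPM in I/R and at 32.5, 32.9 and 33.6 CPM in I/R+Rk2. The spread within each group was far smaller than the gap, and the log2 fold change of -1.22 had an edgeR adjusted p of 0.000240. Creb3l1, of the same family, was at -1.59 (edgeR adjusted p = 0.00167). Tmbim6, which encodes an ER membrane protein that binds IRE1α, was higher at 0.54 (edgeR adjusted p = 0.00586). These 3 genes passed in every alternative. Overlapping exons on opposite strands limit Derl2 (231 bases shared with Mis12), Spcs1 (252 with Glt8d1), Ppib (825 with Snx22), Ppp1r15b (640 with Gm26616), Sil1 (108 with AC147989.1), Atf5 (82 with Nup62), Shmt2 (32 with Ndufa4l2) and Yars (30 with C77080) in the same way as Eif2ak3.

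**Figure D4:**
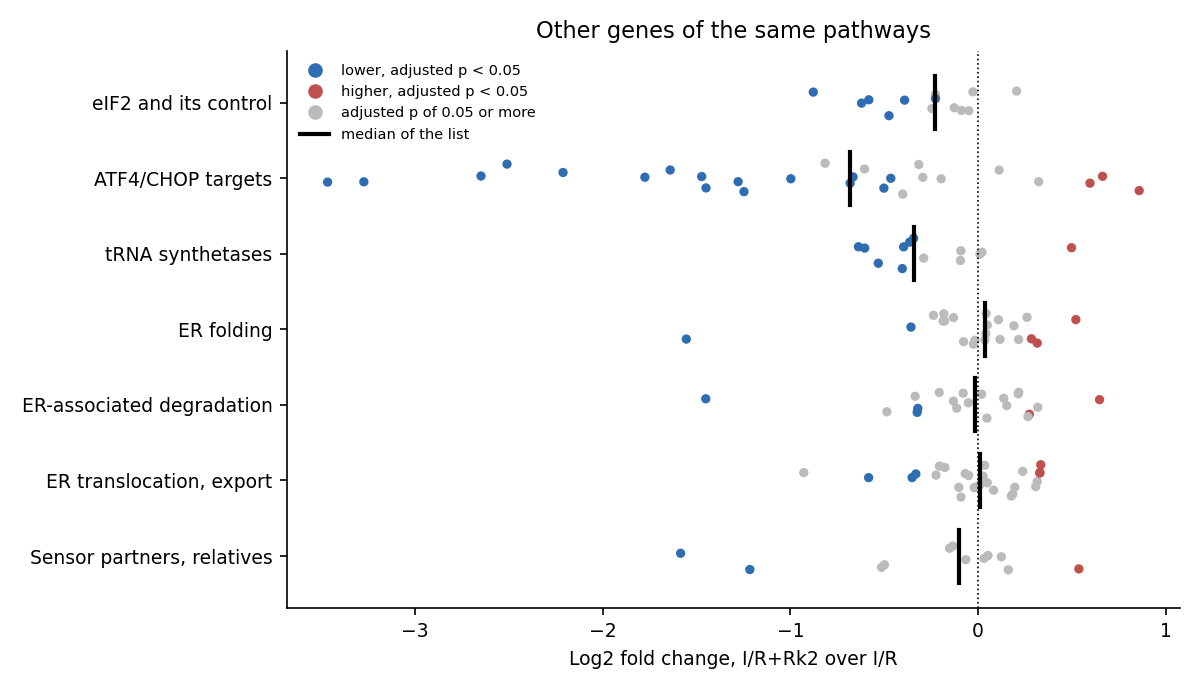
Log2 fold change (I/R+Rk2 over I/R) of every tested gene in the 7 pathway lists, 1 point per gene, coloured by whether the edgeR adjusted p was below 0.05, with the median of each list in black. The ATF4 and CHOP target list has its median at -0.68 and reaches -3.47, while the medians of the 3 ER lists for folding, degradation and translocation lie between -0.02 and 0.04.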

How the data were processed

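Total RNA from 6 mouse livers (3 per group, as labelled) was sequenced. The authors deposited counts per gene and FPKM (fragments per kilobase of transcript per 1000000 fragments). The submitters' processing notes name FastQC 0.11.5, HISAT2 2.2.1, StringTie 1.3.3 and the build mm10, and the annotation and strand setting are not given in the sources used here. Total counts were 16809613 to 35618074 per library, at which 3 counts equal 0.0888 to 0.184 CPM, covering counting error only. The test on the counts used edgeR 4.0.16 under R 4.3.3: filterByExpr, TMM scaling, quasi-likelihood F test without covariates, Benjamini-Hochberg adjustment over 12411 genes, and calls at an adjusted p below 0.05. Scripts were tested on simulated data. Alternatives used DESeq2 1.42.0, limma 3.58.1 on FPKM with a pseudocount of 1 or 0.1, other scalings and filters, the replicate block and leaving out each liver. The labels name separate liver samples without saying more, so p-values measure the spread between these samples. Libraries within a group differed beyond sampling noise (chi-square per degree of freedom 31.4 to 74.8).

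The members and lists were chosen with earlier results of these data known. Named besides the members were up to 4 genes per list with the smallest p among those with an adjusted p below 0.05, and always Hspa5, Dnajb9, Atf3, Ppp1r15a, Eif2ak4 and Fgf21, while genes outside this rule are named as such. A gene that this rule selects is not reported here, though it stayed in every test and count. Gene positions and exon overlaps are from GENCODE M21.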

Additional observations from a re-analysis of the deposited data

How the results depend on the processing

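All 6 called members kept their direction and an adjusted p below 0.05 in each of the 16 alternatives, and the number of members that passed was 6 or 7. Of the members' 160 values under alternatives, 152 kept their direction and side of the threshold, 4 newly passed (Atf4 and Ern1) and 4 changed sign. Those were Ddit3 with replicate 3 of I/R (0.015) or of I/R+Rk2 (0.013) left out, over a range of -0.31 to 0.015 when single livers were left out, and Trib3 with replicate 3 of I/R (0.0096) or replicate 1 of I/R+Rk2 (0.17) left out, over a range of -0.33 to 0.17. The 37 other named genes, counting the 1 not reported here, were less stable. Of their values under alternatives, 488 kept direction and side of the threshold, 100 lost the call, 1 newly passed (Atf3) and 1 changed sign. The sign change was that of Hspa5 with replicate 3 of I/R left out (0.098), over a range of -0.37 to 0.098. The cause was not tested. Members past a fold of 2 numbered 2 (replicate 2 of I/R left out) to 4.

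Genes called over the whole table numbered 5454, and 3781 to 5575 over the alternatives. Scaling by library size alone moved the median log2 fold change of all genes to -0.17 and the lower share of calls from 53.9% to 72.5%, and on FPKM that share was 69.5% to 72.8%. Livers with the same replicate number showed little shared deviation (correlations of deviations -0.03, 0.05 and -0.02). So few livers cannot settle whether those with the same number were handled together. With the replicate block 4713 genes and the same count of 6 members passed. With 3 livers per group, the intervals of Atf4, Ddit3 and Trib3 include differences of either sign, and that of Trib3 is the widest (-0.92 to 0.64).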

Other observations

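The FPKM per CPM of a member depends on its transcript length and on how each library was scaled. The library sizes behind CPM were multiplied by the TMM factors, while FPKM was used as deposited. Those factors were 1.14, 1.02 and 1.01 in I/R and 0.976, 0.949 and 0.914 in I/R+Rk2. For Atf6 the FPKM per CPM was 0.148, 0.133 and 0.131 in I/R and 0.127, 0.123 and 0.119 in I/R+Rk2. Like the TMM factor, it was higher in every I/R liver, as it also was for Atf4, Xbp1, Ern1, Eif2ak3 and Chac1. A difference on FPKM is therefore not on the same scaling as one in CPM. For Asns the FPKM per CPM was 0.592, 0.519 and 0.512 in I/R and 0.499 and 0.430 in I/R+Rk2 replicates 2 and 3. In I/R+Rk2 replicate 1 it was 1.02, which did not follow the TMM factor. The Asns FPKM of that liver, 4.19, lay below the I/R livers (7.46, 5.63 and 7.02) and well above the 1.37 and 1.19 FPKM of the other I/R+Rk2 livers. Asns passed on both scales.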
